A study of Mus musculus with 12 samples.

Results

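The levels of 8 genes known as podocyte markers, Wt1, Clic5, Thsd7a, Synpo, Cd2ap, Podxl, Magi2 and Nphs1, were examined by RNA-seq in primary cultures of mouse mesangial cells (MMC), the contractile cells between the capillaries of the glomerulus. They were picked out by gene symbol, as known podocyte markers and with no threshold on a measured value, and are 8 of the 25230 genes counted. The choice was made with earlier results of these data known. MMC were grown from the glomeruli of wild-type (WT) mice and of lncMGC-KO5 mice on the C57BL/6 background, a line in which Cas9 removed a short stretch just after the transcription start site of lncMGC, the host transcript of the miR-379 microRNA cluster. Cells of each genotype were kept under serum depletion (SD) or received 10 ng/ml of TGF-β for 24 h. The 4 groups, WT-SD and WT-TGF from WT MMC and KO-SD and KO-TGF from KO5 MMC, had 3 libraries each. The KO libraries come from 1 edited line, so that they share 1 deletion. Values are CPM, the reads of a gene scaled by TMM to a common library size, given as mean ± SD (n = 3), unless a raw count is named.

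Podocytes wrap the outer face of the glomerular capillaries with interlocking foot processes. The gaps between foot processes are closed by the slit diaphragm, built around nephrin (Nphs1), and the processes are held by an actin skeleton, a negatively charged apical coat and anchors to a basement membrane. WT1 is a zinc finger transcription factor that podocytes keep through adult life. Several of these genes are also active in other kidney cells, so that a level in a mesangial culture does not by itself name a cell.

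The libraries held between 19898050 and 22827706 reads on genes. The mesangial marker Pdgfrb was high in every group (288 ± 4.16 CPM in WT-SD, 384 ± 1.47 in WT-TGF, 306 ± 8.48 in KO-SD and 358 ± 4.78 in KO-TGF). Mesangial markers were mixed, however, and Itga8 had only 2.89 ± 0.249 CPM in WT-SD and 0.638 ± 0.0477 in KO-TGF. Pdgfrb alone therefore does not name the cells, and further markers are given below. Adjusted p-values are two-sided, from the edgeR quasi-likelihood test after Benjamini-Hochberg correction across the 11527 genes tested, and a gene was called at an FDR under 5%. The study calls the RNA-seq samples of a group independent, but the sources used here do not say whether they were separate mice or separate cultures, so the p-values measure the spread between these libraries, part of which may be technical. No row of the count files is named lncMGC, and the deletion was therefore not checked here, and each KO value is that of the libraries labelled KO.

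Of the 8 genes, 7 were readily counted and Nphs1 was near 0 in all groups. Per length, as CPM divided by exon length in kilobases (RPKM), the order in WT-SD from high to low was Synpo (25.9 RPKM), Podxl (17.8), Wt1 (16.0), Thsd7a (8.48), Clic5 (7.03), Cd2ap (5.74) and Magi2 (2.03). The neighbours in this order differed by more than the spread of their 3 libraries, but the order also rests on the exon lengths used. Cd2ap, with 15864 exon bases against 8782 for Clic5, had more CPM in WT-SD (91.0 against 61.7). Synpo stood above 91.6% of the 18332 genes with a count and a length in WT-SD, Wt1 above 84.8% and Magi2 above 48.1%. In KO-TGF the order was different. Synpo kept 18.1 RPKM, followed by Podxl (4.72 ± 0.232), Cd2ap (4.57 ± 0.0794), Thsd7a (3.76), Wt1 (1.88) and Magi2 (0.849). Podxl and Cd2ap were too close there to rank. Clic5 was the lowest of the 7, at 0.0282 RPKM, above 23.2% of genes.

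**Figure D1:**
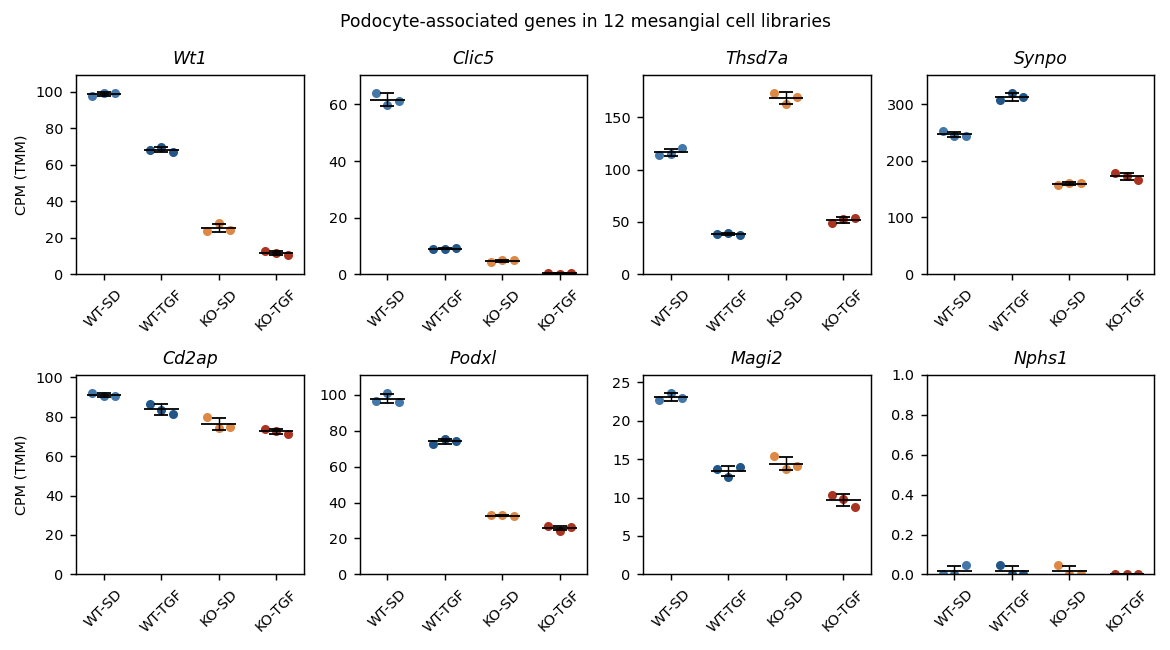
CPM of each gene in the 12 libraries, with 1 panel a gene, the 4 groups on the horizontal axis and CPM from 0 on the vertical axis. Points are libraries and bars are the mean ± SD of 3. Wt1, Clic5 and Podxl step down from WT-SD to KO-TGF, Thsd7a is highest in KO-SD at 169 CPM, and Nphs1 stays under 0.05 CPM in each library.

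Wt1 encodes the transcription factor itself and lies on the plus strand of chromosome 2, from 105126529 to 105173614 (GRCm38.p6). The libraries gave 97.8, 99.3 and 99.6 CPM in WT-SD, 68.1, 69.6 and 66.9 in WT-TGF, 23.8, 28.0 and 24.1 in KO-SD, and 12.9, 11.4 and 10.7 in KO-TGF. The 4 groups did not overlap. TGF-β lowered Wt1, with a log2 change of -0.54 (standard error 0.0404, adjusted p = 4.75e-13) in WT MMC and -1.11 (standard error 0.0699, adjusted p = 4.33e-15) in KO5 MMC. Wt1 in KO5 MMC was 3.91-fold below WT MMC in SD and 5.85-fold below it in TGF (adjusted p = 3.52e-25 and 1.64e-25). The response to TGF-β differed between genotypes by -0.58 on the log2 scale (standard error 0.0818, adjusted p = 1.85e-06). In bulk RNA, fewer cells that express a gene and less RNA per cell cannot be told apart, and this holds for each gene here.

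Wt1os, which is transcribed from the opposite strand beside Wt1 and was counted apart from it by strand, had few reads and moved alongside. It had 112 reads in the 3 WT-SD libraries together, 68 in WT-TGF, 27 in KO-SD and 8 in KO-TGF. In the test on all genes with a count, Wt1os was lower in KO than in WT in SD and in TGF (log2 fold changes -1.95 and -2.85, adjusted p = 2.51e-10 and 6.75e-10).

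Clic5 and Podxl belong to the apical part of the foot process. Clic5 encodes an intracellular chloride channel protein that binds the ezrin complex, and it had the largest differences of the 7 genes in each comparison between groups. A window before 1 RefSeq start of Clic5 is shown because the gene had these differences. Reads were counted per gene, so transcripts from different starts were not told apart. The window is the 250 bases before the RefSeq start, chr17:44188322-44188571 on the plus strand of GRCm38.p6. It lies inside the annotated span of Clic5 (chromosome 17, 44134762 to 44280169) and over no annotated exon. Capitals mark matches to the GC box, GGGCGG read on the opposite strand.
Clic5: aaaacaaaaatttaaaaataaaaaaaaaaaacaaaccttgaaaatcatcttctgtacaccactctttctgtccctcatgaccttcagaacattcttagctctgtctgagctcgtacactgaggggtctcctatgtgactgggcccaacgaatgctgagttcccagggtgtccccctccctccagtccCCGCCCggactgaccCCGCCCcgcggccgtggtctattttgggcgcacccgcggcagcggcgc
The GC boxes begin 63 and 48 bases before the start. At least 1 GC box is found in 32.7% of the 32851 mouse promoter windows of this length, so it is a common feature. The window held 52.8% G and C, near the median of 52.4%, and a CpG ratio (observed over expected) of 0.787 against a median of 0.373. None of the WT1 and EGR zinc finger core (GCGTGGG), the SMAD palindrome (GTCTAGAC), an AP-1 site (TGANTCA), an E2-box (CACCTG) or a TATA box (TATAAA) was found on either strand of these bases.

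The Clic5 libraries gave 64.2, 59.6 and 61.3 CPM in WT-SD and 8.79, 9.01 and 9.29 in WT-TGF. They gave 4.23, 5.02 and 4.86 CPM in KO-SD and 0.321, 0.107 and 0.315 in KO-TGF. No groups overlapped, and KO-TGF rests on 6, 2 and 6 reads. By summed counts over TMM-scaled library sizes, WT-SD exceeded WT-TGF 6.83-fold (exact 95% interval 6.26 to 7.47) and KO-SD exceeded KO-TGF 18.9-fold (11.1 to 35.0). WT-SD exceeded KO-SD 13.1-fold (11.7 to 14.8) and WT-TGF exceeded KO-TGF 36.4-fold (21.5 to 66.9). These intervals cover counting error only. The fitted log2 fold changes with TGF-β were -2.77 in WT (standard error 0.0615, adjusted p = 1.52e-26) and -4.21 in KO5 MMC (standard error 0.236, adjusted p = 2.78e-16). The difference between these responses was -1.44 (standard error 0.319, adjusted p = 8.44e-04).

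Podxl encodes podocalyxin, the sialomucin of the apical coat, and lies on the minus strand of chromosome 6 from 31519493 to 31563937. It had 96.6, 101 and 96.0 CPM in WT-SD, 72.6, 75.2 and 74.3 in WT-TGF, 33.0, 32.9 and 32.3 in KO-SD, and 26.8, 24.4 and 26.4 in KO-TGF. The difference between genotypes was larger than that with TGF-β, and no groups overlapped. Podxl was lower in KO, with log2 changes of -1.58 in SD (standard error 0.0396, adjusted p = 1.10e-24) and -1.52 in TGF (standard error 0.0438, adjusted p = 4.99e-23). TGF-β lowered it by -0.40 in WT and -0.34 in KO5 MMC (adjusted p = 1.44e-11 and 3.54e-07). The 2 responses differed by 0.06 (standard error 0.0608, adjusted p = 0.499).

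Magi2, Cd2ap and Nphs1 are components of the slit diaphragm or its scaffold. Magi2 encodes a scaffold protein with PDZ domains that binds nephrin. The bases before the first of its 2 RefSeq starts that lie outside annotated exons, chr5:19226796-19227035 on the plus strand of GRCm38.p6, are shown because Magi2, like Clic5, was lower with TGF-β and in KO, by smaller steps. They lie inside the span of Magi2 (chromosome 5, 19219387 to 20704792). Capitals mark the only match in these bases to the WT1 and EGR core, GCGTGGG, read on the opposite strand.
Magi2: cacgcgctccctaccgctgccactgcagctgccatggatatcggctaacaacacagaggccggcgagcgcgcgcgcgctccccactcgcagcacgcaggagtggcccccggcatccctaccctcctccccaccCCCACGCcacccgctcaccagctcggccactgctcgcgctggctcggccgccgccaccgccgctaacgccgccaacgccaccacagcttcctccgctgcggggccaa
The match begins 117 bases before the start, and 4.3% of the promoter windows hold this core. Over its 250 bases this Magi2 window was richer in G and C than 93.1% of all windows, and it held no GC box. A second RefSeq start of Magi2 has the window chr5:19907268-19907517, richer in G and C than 14.1% of windows, with a GC box 28 bases and an E2-box 47 bases before the start and no WT1 core. Promoter windows were examined for 5 of the 8 genes. The Thsd7a window, partly over an annotated exon, also held 1 WT1 core, 150 bases before its start, and a GC box at 158 bases. Those of Cd2ap and Nphs1 held neither. Thsd7a, unlike Magi2, was higher in KO. Binding of WT1 to these windows was not tested.

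Magi2 had 22.7, 23.6 and 23.0 CPM in WT-SD, 13.7, 12.7 and 13.9 in WT-TGF, 15.3, 13.7 and 14.1 in KO-SD, and 10.3, 9.79 and 8.78 in KO-TGF. WT-TGF and KO-SD overlapped, between WT-SD above and KO-TGF below. The log2 fold changes with TGF-β were -0.78 in WT and -0.58 in KO5 MMC (standard errors 0.0661 and 0.0795, adjusted p = 6.96e-12 and 1.35e-07). KO was lower by -0.68 in SD and -0.48 in TGF (standard errors 0.0652 and 0.0807, adjusted p = 2.06e-10 and 7.60e-06). The difference between the responses, 0.20 (standard error 0.105), was not called (adjusted p = 0.170) but was called without KO-TGF replicate 3, at 0.30 (adjusted p = 0.0476).

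Cd2ap encodes an adaptor that ties nephrin to actin and lies on the minus strand of chromosome 17 from 42748887 to 42876707. Its libraries gave 92.0, 90.6 and 90.5 CPM in WT-SD, 86.6, 83.3 and 81.1 in WT-TGF, 79.7, 74.1 and 74.9 in KO-SD, and 73.6, 72.7 and 71.1 in KO-TGF. The 12 libraries differed least, relative to their mean, of those of the 7 genes, and the lowest KO-SD and highest KO-TGF libraries nearly touched. Cd2ap was lower in KO by a log2 fold change of -0.25 in SD and -0.21 in TGF (adjusted p = 5.35e-07 and 2.45e-05), and lower with TGF-β in WT MMC by -0.12 (adjusted p = 0.00369). In KO5 MMC the difference with TGF-β was -0.07 (standard error 0.0381, adjusted p = 0.0827). It was called without KO-SD replicate 2, at -0.09 (adjusted p = 0.0411), and with scaling by library size alone, at -0.28 (adjusted p = 8.65e-08), and the difference between the 2 responses was 0.05 (standard error 0.0525, adjusted p = 0.570).

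Nphs1 encodes nephrin, the adhesion protein that spans the slit diaphragm, and lies on chromosome 7 from 30458207 to 30488623. A single read was counted in WT-SD replicate 3, WT-TGF replicate 1 and KO-SD replicate 1, and the other 9 libraries had 0. A count of 0 allows up to 3 reads, or 0.130 to 0.161 CPM in these libraries, so no difference between groups was detectable at this depth and no fold change is given. The antisense gene Nphs1os overlaps Nphs1 and was counted by strand.

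Synpo encodes synaptopodin, an actin-associated protein of foot processes and of contractile cells, and lies on the minus strand of chromosome 18 from 60593981 to 60660173. It was the gene of the 7 with the most RNA per length in every group. The libraries gave 252, 244 and 244 CPM in WT-SD, 307, 320 and 312 in WT-TGF, 157, 161 and 162 in KO-SD, and 179, 174 and 166 in KO-TGF. Within each treatment the KO libraries lay below the WT libraries, and within each genotype the TGF libraries lay above the SD libraries. Synpo rose with TGF-β in WT MMC, by 0.34 on the log2 scale (standard error 0.0277, adjusted p = 2.11e-12). In KO5 MMC the change was 0.11 (standard error 0.0299, adjusted p = 0.00126), a direction that turned to -0.09 (adjusted p = 0.00798) with scaling by library size alone. Under that scaling the median of all genes tested was itself -0.23, and Synpo stood 0.14 above it. Synpo was lower in KO by -0.63 in SD and -0.86 in TGF (adjusted p = 6.03e-18 and 2.10e-21), and the responses to TGF-β differed by -0.23 (standard error 0.0407, adjusted p = 5.19e-05).

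Thsd7a encodes a large transmembrane protein with thrombospondin repeats at the basal side of foot processes, known as a target of autoantibodies in membranous nephropathy. It lies on the minus strand of chromosome 6 from 12311608 to 12749253. It gave 114, 115 and 120 CPM in WT-SD, 38.8, 39.1 and 37.5 in WT-TGF, 174, 163 and 170 in KO-SD, and 48.8, 52.6 and 53.7 in KO-TGF. Among the 7 genes tested, Thsd7a was called higher in KO, by 0.53 in SD (standard error 0.0344, adjusted p = 2.19e-14) and 0.43 in TGF (standard error 0.0453, adjusted p = 2.00e-09) on the log2 scale, and the other 6 were called lower. TGF-β lowered Thsd7a by 3.03-fold in WT and 3.26-fold in KO5 MMC (adjusted p = 4.83e-25 and 2.10e-26). The responses differed by -0.11 (standard error 0.0570, adjusted p = 0.180), a difference that scaling by library size alone brought to -0.15 (adjusted p = 0.0348), where the median of all genes was -0.08.

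**Figure D2:**
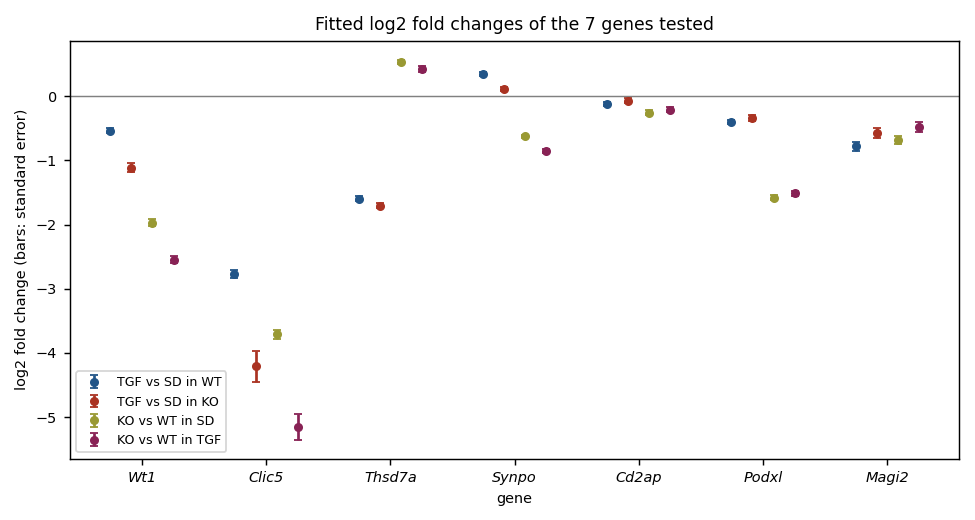
Fitted log2 fold changes of the 7 genes tested, on the vertical axis, in the 4 comparisons between groups, with bars for the standard error. Clic5 reaches -5.15 in KO-TGF against WT-TGF, Thsd7a is above 0 in both comparisons of KO with WT, and Cd2ap lies within 0.3 of 0 throughout.

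Taken over the genes tested, TGF-β raised 1 (Synpo) and lowered 6 of 7 in WT MMC, where 36% of all genes tested were called higher and 36.4% lower. In KO5 MMC, 1 was called higher (Synpo, which turned with scaling by library size), 5 lower and 1 (Cd2ap) not called, against 34.9% higher and 39.1% lower among all genes. KO was higher for 1 (Thsd7a) and lower for 6 in SD, against 30.9% and 25.2% of all genes, and the same counts held in TGF, against 27.3% and 27.8%. The median log2 fold changes of the 7 were -0.54, -0.58, -0.68 and -0.86 in these comparisons, and those of all genes tested lay between -0.03 and 0.02. The comparisons share groups, so their counts are not independent of each other. For the difference between responses, 3 were called lower (Wt1, Clic5 and Synpo), none was called higher and 4 were not called, against 16.6% lower and 8.67% higher among all genes. A further order was chosen after the values were seen: in Wt1, Clic5, Cd2ap and Podxl each WT-SD library exceeded each WT-TGF library, each of those exceeded each KO-SD library, and each of those exceeded each KO-TGF library. This full order held in 2.2% of all genes tested.

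The pattern over the 12 libraries differed within the group. Likeness was taken as the root mean square difference of log2 CPM, each gene centred on its mean. It is not scaled by the size of the changes, so genes that change little come out close whatever their direction. The smallest differences were between Synpo and Cd2ap (0.314), Cd2ap and Magi2 (0.344), and Wt1 and Podxl (0.456). Synpo and Cd2ap went opposite ways with TGF-β in WT MMC (log2 fold changes 0.34 and -0.12). Clic5 stood apart, at 1.62 from its nearest member, Wt1. Thsd7a was nearest to Magi2 (0.729). These are descriptions over 12 libraries that share groups.

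Among 11993 other genes whose mean reached 1 CPM, those closest to Wt1 were Malrd1 (0.108), Ephb6 (0.116) and Gpx3 (0.157), the secreted glutathione peroxidase. Closest to Podxl were Gpsm3 (0.115), Atp6v0e2 (0.142) and Gas6 (0.144), a ligand of the TAM receptor kinases. For Clic5 the nearest were Sncaip (0.533), Wnt16 (0.603) and Serpina10 (0.667), so that no gene came as near to Clic5 as to the others. Thsd7a was closest to Cdc42ep3 (0.117), Dmpk (0.122) and Dtx4 (0.145), and Synpo to Nav2 (0.0687), the matrix metalloprotease gene Mmp2 (0.0952) and Foxd2os (0.109). Cd2ap lay nearest to Ppfia1 (0.0279), Irf2bp2 (0.0314) and Gpbp1l1 (0.0403). Magi2 lay nearest to Nexmif (0.0909), Tcp11l2 (0.0944) and Nfkbia (0.0960), which encodes an NF-κB inhibitor.

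A wider list of 49 other podocyte genes gave 36 that passed the filter and were tested. With TGF-β 11 rose and 20 fell in WT MMC, beside 36% and 36.4% of all genes tested, and 12 rose and 21 fell in KO5 MMC, beside 34.9% and 39.1%. KO was higher for 10 and lower for 23 in SD, beside 30.9% and 25.2% of all genes, and higher for 11 and lower for 22 in TGF, beside 27.3% and 27.8%. The median log2 fold changes were -0.17, -0.21, -0.22 and -0.22, nearer to 0 than those of the 7 genes. For the difference between responses, 6 were called higher and 10 lower, beside 8.67% and 16.6%.

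In the slit diaphragm list 6 of 12 genes were tested, and the rest did not pass the filter, with Kirrel2 the lowest by length, at 1 read over all libraries. Of the 6 tested, 5 were higher and 1 was lower in KO-TGF against WT-TGF, where 27.3% and 27.8% of all genes tested were called. Below the filter, and chosen after their values were seen, Plce1 and Kirrel3 went the other way. Plce1, a phospholipase C gene linked to inherited nephrotic syndrome, had 635 reads in WT-SD, 506 in WT-TGF, 43 in KO-SD and 20 in KO-TGF, and was 13.8-fold and 21.8-fold lower in KO in SD and in TGF (adjusted p = 1.69e-108 and 2.92e-96 in the test on all genes with a count). Kirrel3, a relative of nephrin, was 2.55-fold lower in KO in TGF (adjusted p = 1.02e-11) and did not pass the test in SD (log2 fold change 0.10, adjusted p = 0.759). Fat1, a giant cadherin of the slit diaphragm, was the highest of the list, at 3651 ± 21.3 CPM in WT-SD and 3493 ± 36.5 in KO-TGF. Cdh3, or P-cadherin, was higher in KO by log2 fold changes of 1.78 in SD and 1.23 in TGF (adjusted p = 2.51e-14 and 1.57e-08).

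Genes of the actin cytoskeleton list divided, with 3 higher and 6 lower of 9 tested with TGF-β in KO5 MMC. In that comparison 34.9% of all genes tested were called higher and 39.1% lower. Myh9, non-muscle myosin heavy chain, was the highest (3857 ± 31.4 CPM in WT-SD and 6821 ± 76.7 in WT-TGF) and Synpo2, a relative of Synpo, the lowest (6.67 ± 0.521 CPM in WT-SD). Anln, which encodes the actin-binding and cytokinesis protein anillin, fell with TGF-β by 2.85-fold in WT and 5.64-fold in KO5 MMC and stood 3.68-fold higher in KO-SD than in WT-SD. Slc9a3r2, which links podocalyxin to ezrin, had a log2 fold change of -1.31 in KO-TGF against WT-TGF (adjusted p = 6.68e-19).

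Among surface and secreted products 7 of 11 were tested. With TGF-β 5 fell in each genotype, beside 36.4% of all genes tested in WT and 39.1% in KO5 MMC. Mme (neprilysin) had 22.8 ± 0.997 CPM in WT-SD, 3.69 ± 0.684 in WT-TGF, 1.81 ± 0.449 in KO-SD and 0.302 ± 0.203 in KO-TGF, the same order of group means as Clic5. Enpep (aminopeptidase A) had 82.8 ± 4.44, 19.6 ± 1.44, 51.0 ± 2.11 and 5.58 ± 0.991 CPM in the same order of groups. Dag1 (dystroglycan), the highest of the list, fell with TGF-β by -1.30 in WT and -1.18 in KO5 MMC, and Vegfa rose by 1.14 and 1.51. Sema3g rose with TGF-β in WT by 0.80 and fell in KO5 MMC by -2.01 on the log2 scale, with a difference of responses of -2.81 (adjusted p = 1.01e-13). Pla2r1, the lowest of the list, had 51 reads in WT-SD and 3 in KO-TGF.

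Of the transcription and cell cycle list 6 of 8 were tested. With TGF-β 4 fell in WT and 5 in KO5 MMC, beside 36.4% and 39.1% of all genes tested. Dach1, a transcriptional cofactor, had 15.9 ± 1.17 CPM in WT-SD, 7.46 ± 0.254 in WT-TGF, 8.60 ± 0.963 in KO-SD and 2.52 ± 0.179 in KO-TGF. Foxc1 was the highest by length (32.8 RPKM in WT-SD), and Tcf21 the lowest, with 14 reads in all 12 libraries.

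All 8 genes of the basement membrane list were tested, and 7 were lower and 1 higher in KO than in WT in each treatment. Of all genes tested, 25.2% were lower and 30.9% higher in SD, and 27.8% and 27.3% in TGF. Col4a3 and Col4a4, chains of the mature type IV collagen of the glomerular basement membrane, rose with TGF-β in WT MMC (log2 fold changes 1.26 and 0.97) and had log2 fold changes of -3.91 and -3.56 in KO-SD against WT-SD. Col4a5 fell with TGF-β by -0.96 in WT and -1.11 in KO5 MMC. Itgb1, the integrin β1 chain and the highest of the list, rose by 1.22 in WT and 1.19 in KO5 MMC.

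**Figure D3:**
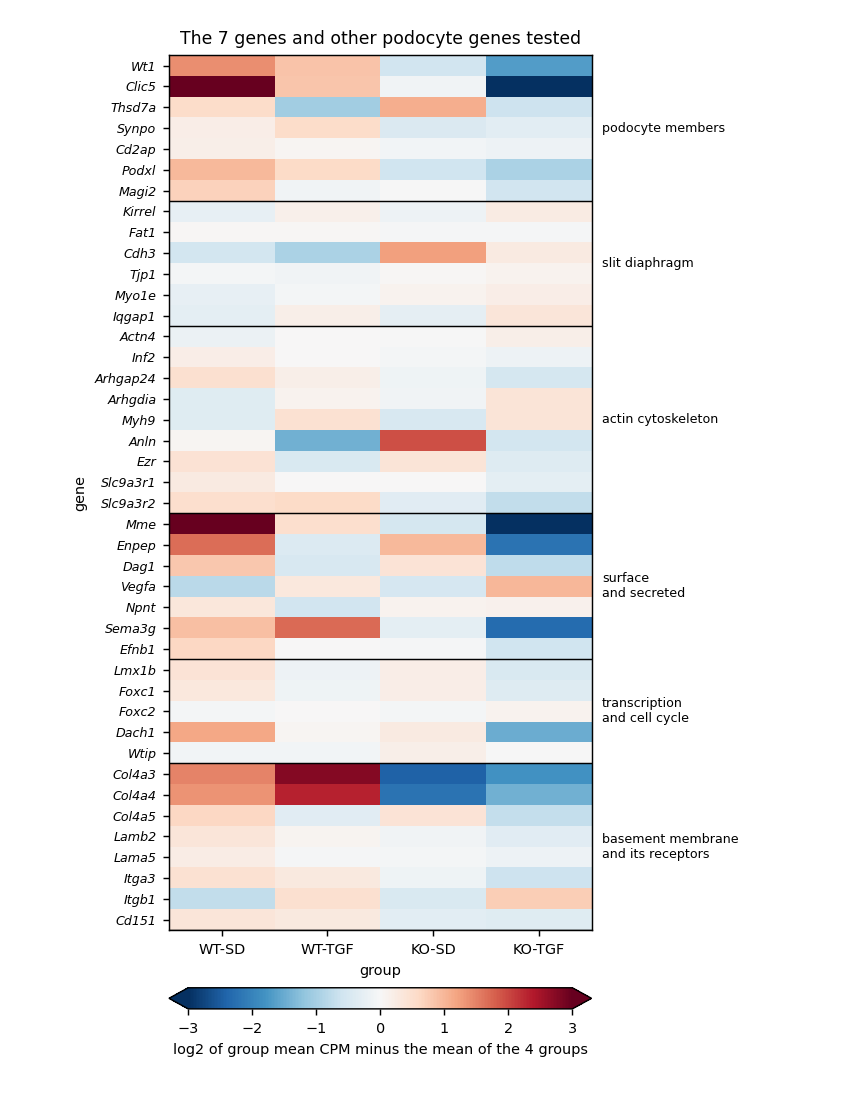
Group mean log2 CPM of the 7 genes tested and of other podocyte genes tested, each gene minus its mean over the 4 groups, with colours saturated beyond 3. Rows are genes by list and columns are groups. Clic5 and Mme run from high in WT-SD to low in KO-TGF, Col4a3 and Col4a4 are high in both WT groups, and Cdh3 and Anln are highest in KO-SD.

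Of 13 paralogs and partners of the 8 genes 6 were tested, and with TGF-β 3 rose and 3 fell in each genotype. Among all genes tested, 36% rose and 36.4% fell in WT MMC, and 34.9% rose and 39.1% fell in KO5 MMC. Clic1, the highest of the list per length, had 195 ± 6.86 CPM in WT-SD and 263 ± 2.81 in KO-TGF, where Clic5 was at 0.248 ± 0.122, and Clic6 had 7 reads in all. Magi3, a relative of Magi2, fell with TGF-β by -1.54 in WT and -1.56 in KO5 MMC (adjusted p = 1.26e-24 and 4.71e-24). Podxl2, a relative of Podxl, fell by -0.58 in WT and -1.14 in KO5 MMC (adjusted p = 5.82e-12 and 3.16e-18).

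Some markers of other cell types moved with the members. Pax8 and Cldn1, genes of parietal epithelial cells of the Bowman capsule and of tubules, had 241 ± 3.15 and 229 ± 6.64 CPM in WT-SD, 121 ± 6.31 and 36.9 ± 0.244 in WT-TGF, 157 ± 7.48 and 62.0 ± 4.47 in KO-SD, and 64.4 ± 1.40 and 10.4 ± 0.620 in KO-TGF. Pax2, from the same list, fell with TGF-β in both genotypes but was not called between them (9.57 ± 0.285 CPM in WT-SD and 9.16 ± 1.10 in KO-SD). The summed CPM of the 6 parietal genes lay between 1003 and 1035 in WT-SD, 1435 and 1491 in WT-TGF, 680 and 705 in KO-SD, and 1613 and 1669 in KO-TGF, most of it from Ncam1 in the TGF groups (544, 1299, 468 and 1566 CPM), which was chosen after its values were seen. The 2 keratins of the list were too low to pass the filter. Their part in the results on the members was not tested.

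The 10 tubular genes summed to between 72.4 and 78.9 CPM in WT-SD, 18.7 and 20.4 in WT-TGF, 20.7 and 23.1 in KO-SD, and 7.36 and 7.61 in KO-TGF. Of this list 3 genes were tested, and all fell with TGF-β, beside 36.4% of all genes tested in WT and 39.1% in KO5 MMC. In KO 2 were lower and 1 (Aqp1) higher in SD, beside 25.2% and 30.9% of all genes. In TGF 3 were lower in KO, beside 27.8%. Lrp2 (megalin) had 42.6 ± 1.55, 11.7 ± 0.271, 10.8 ± 0.883 and 3.28 ± 0.176 CPM in the 4 groups, and Slc34a1 and Umod had no reads. Slc12a1, below the filter, went the other way, with 24, 54, 81 and 172 reads. Aqp1 and Slc12a1 were chosen after their values were seen. The 11 macrophage genes summed to 28.8 to 30.8 CPM in WT-SD, 17.7 to 21.6 in WT-TGF, 2.20 to 2.70 in KO-SD and 1.12 to 1.71 in KO-TGF. Adgre1, the gene of F4/80, had 514 and 255 reads in WT-SD and WT-TGF and 0 in all 6 KO libraries, Lyz2 had 807, 540, 24 and 3 reads, and Csf1r 133, 78, 38 and 29. The part of these cells in the results was not tested.

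Most endothelial and mesothelial markers were low. Of the endothelial list, Pecam1, Cdh5 and Kdr stood under 0.5 CPM in each library, and the summed level, 33.5 to 33.7 CPM in WT-SD and 9.83 to 11.6 in KO-TGF, was nearly all Ehd3, chosen after its value was seen. The 6 mesothelial genes counted summed to at most 2.39 CPM in WT and at most 5.65 in KO libraries, with Msln at 0.780 ± 0.199 CPM in KO-SD and Upk3b at 0.971 ± 0.358, and Upk1b low as well. Krt19, chosen after its values were seen and the only gene of that list above the filter, had 0.221 ± 0.153 CPM in WT-SD, 0.469 ± 0.161 in WT-TGF, 2.09 ± 0.366 in KO-SD and 3.24 ± 0.715 in KO-TGF, and was higher in KO (log2 fold changes 3.19 in SD and 2.77 in TGF, adjusted p = 4.16e-09 and 6.16e-10). Of the mesangial list 7 of 10 genes were tested. In KO against WT 5 were higher and 2 lower in SD, and 4 higher and 3 lower in TGF. Among all genes tested, 30.9% were higher and 25.2% lower in SD, and 27.3% higher and 27.8% lower in TGF. Itga8 was low (2.89 ± 0.249, 1.61 ± 0.236, 3.05 ± 0.349 and 0.638 ± 0.0477 CPM) and Gata3 was higher in KO (log2 fold changes 0.84 in SD and 1.18 in TGF). The summed list was 2831 to 2955 CPM in WT-SD and 11060 to 11150 in KO-TGF, most of it from the contractile genes Acta2 and Tagln (6288 ± 32.6 and 3915 ± 24.5 CPM in KO-TGF). Des, Serpine2 and Pdgfra, which like Acta2 and Tagln were named after their values were seen, were lower with TGF-β and in KO, as most members were. Des (desmin) had 7.67 ± 0.947 CPM in WT-SD and 0.248 ± 0.108 in KO-TGF, Serpine2 277 ± 7.18 and 44.4 ± 1.45, and Pdgfra 3.54 ± 0.426 and 0.212 ± 0.0894. Pdgfra did not pass the filter. Cspg4, also chosen after its values were seen, went the other way like Acta2 and Tagln. It had 39.7 ± 1.51 CPM in WT-SD, 174 ± 6.03 in WT-TGF, 95.5 ± 2.59 in KO-SD and 486 ± 2.27 in KO-TGF. The part of these genes in the results was not tested.

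**Figure D4:**
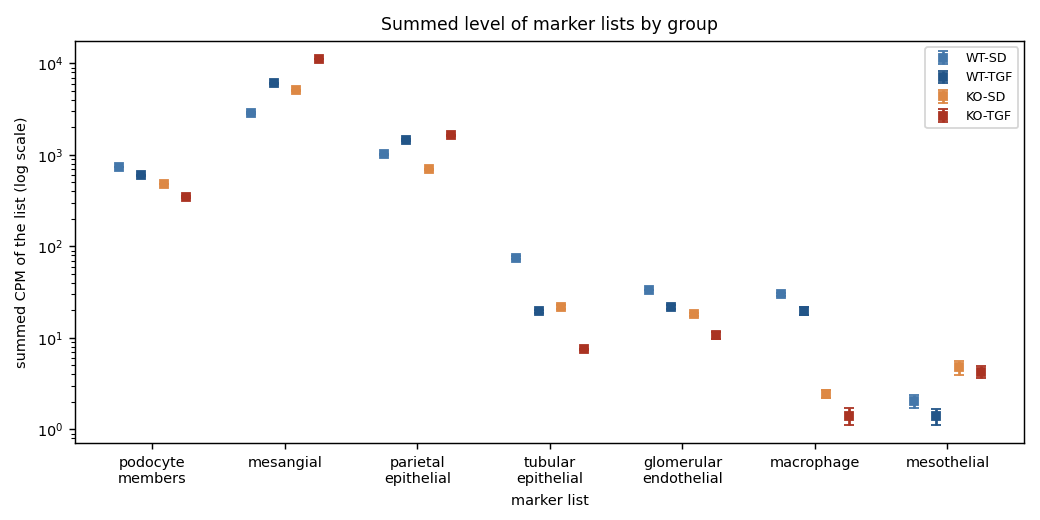
Summed CPM of the marker lists on a log axis, by group, with squares at the middle of the range and bars from the lowest to the highest of the 3 libraries. The 8 podocyte-associated genes fall from between 733 and 739 in WT-SD to between 337 and 352 in KO-TGF, the macrophage list falls between genotypes, and the mesangial list, most of it Acta2 and Tagln, rises.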

How the data were processed

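The authors prepared stranded mRNA libraries, mapped the reads, which were single-end, onto mm10 by TopHat, counted them on RefSeq genes with HTSeq-count by strand, and deposited raw counts per gene for each of 12 libraries. Multiply aligned reads (11.2% to 11.7% of each file) and other rows that name no gene were left out. Counts were scaled by TMM and tested with edgeR 4.0.16 (R 4.3.3) by the quasi-likelihood test, with all libraries in 1 fit with 1 mean per group (8 residual degrees of freedom, common biological coefficient of variation 0.0268). Genes with RPKM >1 in at least 1 library were tested (11527), with lengths from the GENCODE exon union. Nphs1 and other genes below this filter were taken from the same test on the 18565 genes that had any count. Log2 CPM for likeness used a prior count of 2. Steps were tested on simulated data. DESeq2 1.42.0 and other settings were run as alternatives.

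Libraries were grouped by genotype and treatment as labelled. Replicate numbers were not used to pair libraries, and the labels do not say what a shared number means. Deviations from group means correlated only weakly between libraries of the same number, from -0.027 to 0.0784 over 18 pairs. Replicates of a group differed beyond sampling noise in all 12 pairs. The members, gene lists and tests were chosen with earlier results of these data known. Named by rule were the 8 members, other podocyte and related genes with FDR under 5% and fold >2, the highest and lowest of each such list by RPKM, the first 3 markers of other cell types, and the 3 genes nearest to each member. Others (Wt1os, Plce1, Kirrel3, Acta2, Tagln, Des, Serpine2, Pdgfra, Cspg4, Krt19, Ncam1, Ehd3, Aqp1, Slc12a1) were chosen after their values were seen. Some genes of the lists, though counted in the list totals, are not reported here by name. Promoter sequences are RefSeq's, GRCm38.p6.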

Additional observations from a re-analysis of the deposited data

Results flagged for a closer look

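The response to TGF-β differed between genotypes for 3 of the 7 genes tested, by the interaction term of edgeR's quasi-likelihood fit with 3 libraries a group. All 3 were called lower, beside 16.6% of all genes tested called lower and 8.67% called higher. For Wt1 the log2 response in KO5 MMC minus that in WT MMC was -0.579. For Clic5 it was -1.438, with 14 reads in KO-TGF behind it. For Synpo it was -0.2314, between responses of 0.34 in WT and 0.11 in KO5 MMC, the latter of which turned to -0.09 with scaling by library size alone.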

How the results depend on the processing

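Results were recomputed with scaling by library size alone, DESeq2, 2 other filters on low values, only the groups compared, a replicate block, and without each library in turn. All 89 recomputed counts of members called stayed within 1.5 times the first value, and of the recomputed log2 fold changes 618 kept their direction and their side of the threshold, 4 gained a call and 1 reversed. The change of Synpo with TGF-β in KO5 MMC reversed to -0.09172 with library size alone. Calls were gained by Cd2ap with TGF-β in KO5 MMC (-0.2777 with library size alone and -0.0938 without KO-SD replicate 2), by Thsd7a for the difference of responses (-0.1539 with library size alone) and by Magi2 for the difference of responses (0.3031 without KO-TGF replicate 3). Scaling by library size moved the median of all genes to -0.16 with TGF-β in WT, -0.23 with TGF-β in KO5 MMC and -0.13 in KO-TGF against WT-TGF, and relative to that median Cd2ap with TGF-β in KO5 MMC stood at -0.05.

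The replicate block left 7, 6, 7, 7 and 3 members called in the 5 comparisons, as without it. It raised the calls over all genes in each comparison, at most from 2911 to 3171, in the difference of responses. The library that matched best had the same number in 19 of 36 comparisons of a library with another group, with 3 to choose from each time. These values do not settle whether the numbers mark a weak pairing. Depth limits Nphs1 and, in KO-TGF, Clic5.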
